A study of Nicotiana tabacum with 20 samples.

Results

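Of 24069 tobacco leaf features, 18 stood apart in the selfed progeny of hairpin line 1 (HP1_T2), 12 of them above and 6 of them below each of the other groups. The members were chosen from total gene reads of all 20 libraries, divided by a size factor per library (scaled reads). X is a group's mean of scaled reads plus 1. The high set needed an X of at least 20 in HP1_T2 and at least 2 times that of each other group. The low set needed an X of at least 20 in each of the other 4 groups and a ratio of at least 2 from each of them down to HP1_T2. These same values chose the members, so the position of HP1_T2 is given below as a description, without a test.

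The features are UniGene clusters, which are groups of tobacco transcript sequences gathered by similarity. The files do not pair their identifiers with gene names, and 0 of the 24069 matched the 79372 genes of the RefSeq table at hand, so what the members encode is not stated, and only 4 are given by identifier. The others are called by set, rank of ratio and length. The leaf label could not be checked against marker genes, nor the transgene in any library, for the same reason.

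The series concerns Tnt1, a retrotransposon of tobacco that moves through an RNA copy and is known to become active in cultured and stressed tissue. A hairpin transgene folds into double-stranded RNA, which plant cells cut into small RNAs that silence matching transcripts. Selfing a primary transformant lets its transgene insertions, and any other mutation it carries, segregate among the progeny.

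There were 5 groups of 4 libraries. HP1_T2 plants came from self-pollination of HP1_T1. HP1_T1 and HP8_T1 plants were regenerants of hairpin lines 1 and 8. All 3 hairpin groups carried the 35S promoter before a sense and an antisense fragment of the Tnt1 reverse transcriptase with an intron between them and an OCS terminator, hygromycin resistance and the GUS reporter. The empty-vector regenerants (C) carried 35S, intron, OCS terminator and hygromycin resistance, without the Tnt1 fragments or GUS, and wild-type plants (WT) carried no transgene. All plants were 45 days old and grown in vitro at 24 °C under 14 h of light. HP1_T2 is the only T2 group of the series, so what is particular to T2 plants and what is particular to this progeny cannot be told apart. The labels leave unsaid whether libraries of 1 group were made from different plants, and p-values then reflect library-to-library spread, which may be technical. Fewer cells of a type and less RNA per cell cannot be told apart in whole leaves.

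Total gene reads ranged from 1958952 to 3638494 per library, but reads outside the single most abundant feature ranged from 199341 to 647426, and the precision of the members rests on these. The size factors ranged from 0.512 to 1.74 and came from 1134 features.

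HP1_T2 was the group with the fewest features set apart. Of 2025 features with an X of at least 20 in HP1_T2, 0.593% were in the high set, and of 1077 with an X of at least 20 in all other groups, 0.557% were in the low set. With the same rule turned on each other group, 23 features were high and 16 low in HP1_T1, 94 and 10 in HP8_T1, 23 and 18 in C, and 346 and 110 in WT. The ratio to the nearest group reached 4.05 in the high set and 3.65 in the low set. The ratio passed 3 for 1 high and 2 low members, and 2.5 for 3 high and 2 low members, while 47 and 20 features passed 1.5. The last member inside the limit of the high set was the feature of 835 bases, at a ratio of 2.004, and the first outside it had 927 bases and a ratio of 1.991. In the low set the last member inside had 848 bases and a ratio of 2.12, and the first outside had 950 bases and a ratio of 1.84.

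**Figure D1:**
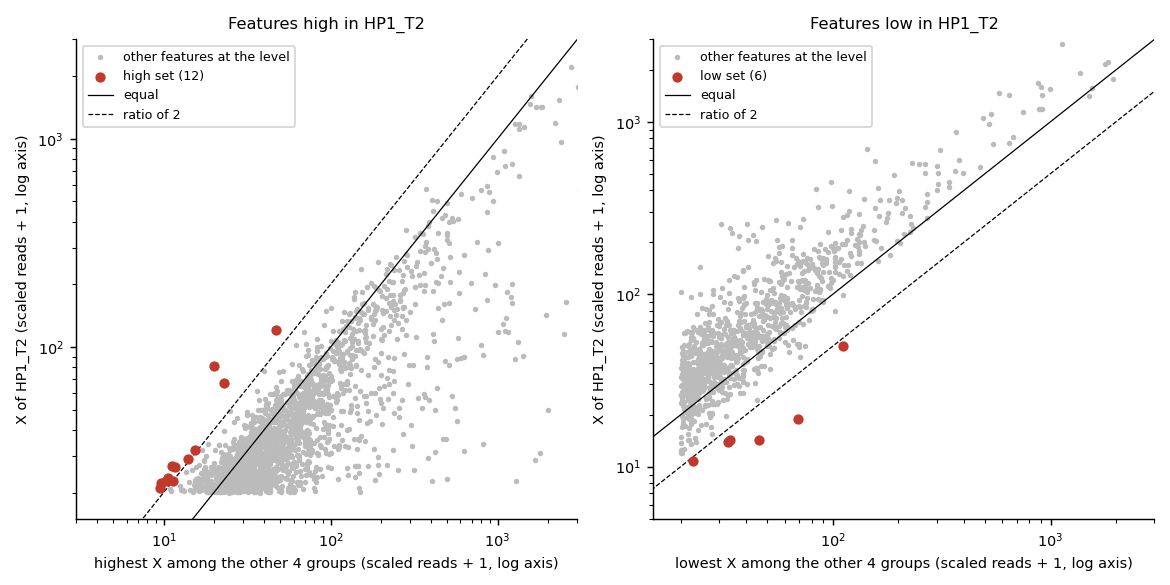
X of HP1_T2 (vertical, log axis) against the highest X among the other 4 groups (left) and the lowest X among them (right). Grey points are other features with an X of at least 20 where the rule asks for it, red points the 12 high and 6 low members, and lines mark equality and a ratio of 2; 21 and 11 features beyond 3000 are not shown. Of the high members, 3 lie well clear of the limit and 9 lie close to it.

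Nta#S33541866 (853 bases), the high member with the largest ratio, had 83.6, 84.7, 73.2 and 80.2 scaled reads in the 4 HP1_T2 libraries. It had 24.7, 25.6, 10.9 and 15.3 in HP1_T1, 9.69, 3.60, 4.89 and 10.1 in HP8_T1, 3.91, 24.5, 11.1 and 11.9 in C, and 6.65, 9.21, 12.0 and 2.46 in WT. Every HP1_T2 library lay above all 16 others, and the parent generation HP1_T1 came next but overlapped C and WT. X in HP1_T2 was 4.05 times that in HP1_T1, 10.1 times that in HP8_T1, 5.88 times that in C and 9.50 times that in WT, and edgeR's fitted log2 difference from HP1_T1 was 2.18 (SE 0.19). Only 74.7% of the reads of this feature were unique to it, so part of its count may belong to a near-identical sequence. With unique reads alone its ratio to the nearest group was 4.10.

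Nta#S45497669 (654 bases), the high member with the highest level, had 123.4, 122.4, 103.4 and 129.8 scaled reads in HP1_T2. It had 32.6, 34.7, 29.3 and 32.5 in HP1_T1, 38.8, 39.6, 54.5 and 51.3 in HP8_T1, 29.3, 30.2, 34.8 and 41.7 in C, and 41.6, 35.7, 41.4 and 33.2 in WT. The HP1_T2 libraries were again all above the others, and here HP8_T1, not the parent generation, was nearest. The ratio of X was 3.63 to HP1_T1, 2.57 to HP8_T1, 3.45 to C and 3.10 to WT, and the fitted log2 difference from HP1_T1 was 1.97 (SE 0.14). All reads of this feature were unique.

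High member 2 (487 bases) averaged 66.4 ± 6.51 scaled reads in HP1_T2, against 14.5 ± 2.94 in HP1_T1, 14.9 ± 3.09 in HP8_T1, 11.8 ± 3.79 in C and 22.05 ± 7.92 in WT (SD, n = 4 each). WT was the nearest group for this member, at a ratio of 2.92. These 3 members had 285 to 516 reads over the HP1_T2 libraries and were kept in the high set under each of 4 other scalings, with unique reads, and with each of the 20 libraries left out.

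The other 9 high members were low in every group, with means of 19.98 to 31.2 scaled reads in HP1_T2 and 86 to 135 reads over its 4 libraries. High member 4 (903 bases) averaged 26.0 ± 1.62 in HP1_T2, 10.3 ± 2.87 in HP1_T1, 6.94 ± 3.23 in HP8_T1, 7.39 ± 2.26 in C and 3.94 ± 2.34 in WT (SD, n = 4 each). High member 10 (834 bases) averaged 31.2 ± 8.03 in HP1_T2, 11.3 ± 1.65 in HP1_T1, 12.5 ± 2.44 in HP8_T1, 14.4 ± 2.40 in C and 14.0 ± 7.64 in WT. High member 5, of the same length, averaged 21.2 ± 3.72 in HP1_T2, 5.30 ± 2.23 in HP1_T1, 3.49 ± 2.52 in HP8_T1, 8.70 ± 3.29 in C and 7.09 ± 2.29 in WT. For members 5 and 10 the nearest group was C, while for member 4 it was the parent generation.

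High members 9 (859 bases) and 11 (895 bases) were nearly without reads in C. Member 9 had 96 reads in HP1_T2, 59 in HP1_T1, 32 in HP8_T1, 3 in C and 4 in WT, each over 4 libraries. Member 11 had 120 reads in HP1_T2, 80 in HP1_T1, 67 in HP8_T1, 3 in C and 25 in WT. These sums are not scaled for depth, which differed between the groups. In scaled reads, member 9 averaged 22.4 in HP1_T2, 9.63 in HP1_T1, 6.17 in HP8_T1, 1.22 in C and 1.19 in WT. The means of member 11 were 28.1, 13.0, 13.0, 1.22 and 8.73 in the same order. In WT, member 11 had 19.96 scaled reads in replicate 1 and 4.60 to 5.44 in the other replicates. Member 9 was the only high member whose HP1_T2 libraries overlapped another group: its HP1_T2 libraries had 34.7, 23.5, 21.97 and 9.55 scaled reads, and 2 HP1_T1 libraries had 18.25 and 10.6.

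High member 7 (769 bases) averaged 21.8 ± 3.45 scaled reads in HP1_T2, 9.27 ± 3.26 in HP1_T1, 4.92 ± 0.639 in HP8_T1, 5.76 ± 4.24 in C and 1.59 ± 0.633 in WT (SD, n = 4 each). High member 8 (641 bases) had a mean of 19.98 ± 4.07 in HP1_T2, 8.52 ± 2.82 in HP1_T1, 6.23 ± 2.55 in HP8_T1, 3.94 ± 2.89 in C and 1.99 ± 1.87 in WT. High member 12 (835 bases) stood at 21.7 ± 7.84 in HP1_T2, 10.3 ± 3.63 in HP1_T1, 5.85 ± 2.74 in HP8_T1, 7.47 ± 3.94 in C and 4.17 ± 1.77 in WT. In these 3 members the parent generation was nearest to HP1_T2, and WT was lowest, with 5 reads over its 4 libraries for member 7 and 7 for member 8. High member 6 (593 bases) averaged 25.5 ± 5.81 in HP1_T2, 9.75 ± 2.63 in HP1_T1, 10.7 ± 4.84 in HP8_T1, 5.32 ± 1.63 in C and 6.87 ± 4.21 in WT. Here HP8_T1 was nearest, and its libraries overlapped those of HP1_T1, C and WT. Each HP1_T1 library lay above each C library only by a narrow margin, the lowest in HP1_T1 at 7.48 and the highest in C at 7.44.

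Over the 12 high members, the parent generation HP1_T1 was the nearest group for 7, HP8_T1 and C for 2 each, and WT for 1. The median ratio of HP1_T2 was 2.43 to HP1_T1, 3.29 to HP8_T1, 3.82 to C and 3.88 to WT. HP1_T2 libraries lay above all 16 others for 11 of the 12, against 2.86% of the 2025 features with an X of at least 20 in HP1_T2; the rule used this contrast, so nothing is read from the count. No group was without reads for any of the 18 members, so none was switched on or off altogether in HP1_T2 at this depth.

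**Figure D2:**
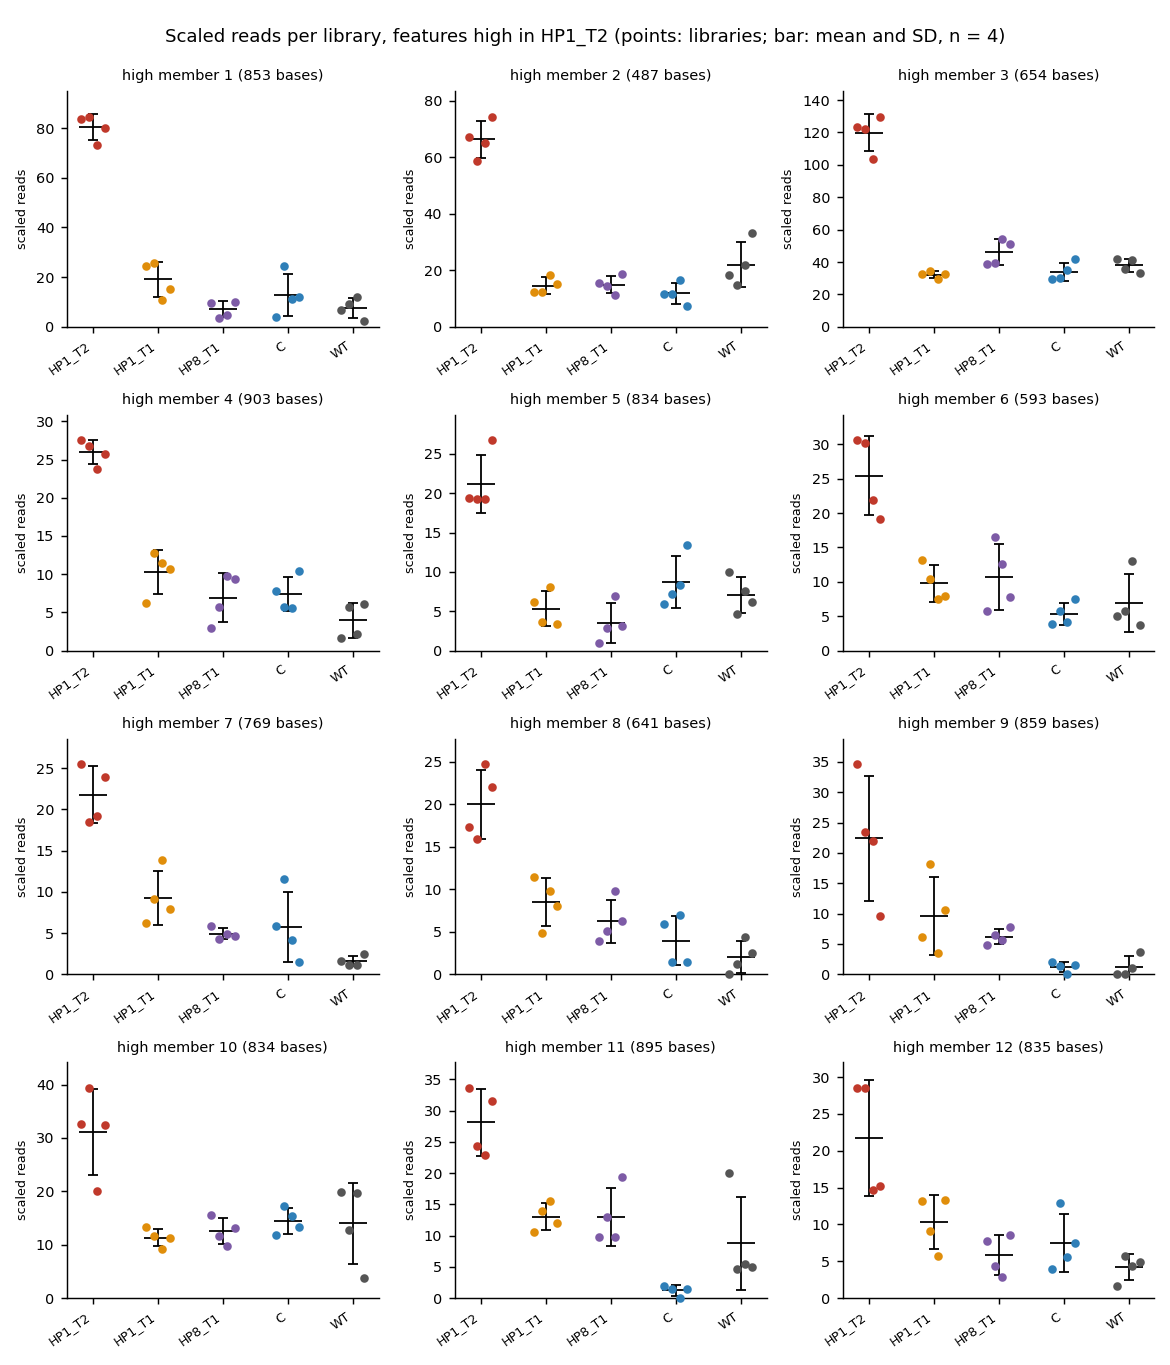
Scaled reads (vertical) in each library of HP1_T2, HP1_T1, HP8_T1, C and WT for the 12 high members, one panel each, from the largest ratio to the smallest. Points are libraries and bars the mean and SD (n = 4); vertical axes start at 0 and differ between panels. Members 1, 2, 3 and 4 are set apart by wide gaps, whereas member 9 overlaps HP1_T1.

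Nta#S45496192 (896 bases), the low member with the largest ratio, had 13.2, 21.8, 21.0 and 15.3 scaled reads in HP1_T2. It had 70.5, 87.6, 68.5 and 57.1 in HP1_T1, 81.4, 51.2, 71.9 and 66.8 in HP8_T1, 132.9, 122.4, 130.7 and 142.8 in C, and 126, 139, 153 and 166 in WT. The libraries fell into 3 tiers, with HP1_T2 lowest, both T1 hairpin groups in the middle and both controls highest, and without overlap between the tiers. X was 3.82 times as high in HP1_T1, 3.65 times in HP8_T1, 7.07 times in C and 7.81 times in WT as in HP1_T2, and the fitted log2 difference of HP1_T2 from HP1_T1 was −1.89 (SE 0.18). Unique reads made up 71.7% of its reads, and with these alone the ratio to the nearest group was 3.81.

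Nta#S45496119 (877 bases), the low member with the highest level in the other groups, had 42.8, 40.2, 56.7 and 55.4 scaled reads in HP1_T2. It had 108.4, 121.7, 100.1 and 110.9 in HP1_T1, 157, 150, 131 and 133 in HP8_T1, 487, 413, 387 and 397 in C, and 402, 399, 367 and 328 in WT. The same tiers appeared, and here HP1_T1 was also below HP8_T1 in every library. The ratio of X to HP1_T2 was 2.23 for HP1_T1, 2.89 for HP8_T1, 8.47 for C and 7.53 for WT, the fitted log2 difference of HP1_T2 from HP1_T1 was −1.10 (SE 0.12), and all of its reads were unique.

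Low member 2 (421 bases) had the same tiers of groups, at 13.3 ± 8.40 scaled reads in HP1_T2, 44.7 ± 7.46 in HP1_T1, 58.2 ± 10.4 in HP8_T1, 113 ± 21.7 in C and 106 ± 12.0 in WT (SD, n = 4 each). Its HP1_T2 libraries spread from 5.87 to 23.9, and 51.4% of its reads were unique. With unique reads alone its ratio to the nearest group was 3.47, against 3.19 with all reads.

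Low members 3, 4 and 6 lacked those tiers. Member 3 (834 bases) averaged 13.2 ± 6.17 scaled reads in HP1_T2, 33.3 ± 3.63 in HP1_T1, 32.7 ± 2.08 in HP8_T1, 33.9 ± 11.0 in C and 33.3 ± 15.4 in WT. Member 4 (879 bases) averaged 12.8 ± 4.11 in HP1_T2, 46.6 ± 9.62 in HP1_T1, 58.1 ± 3.52 in HP8_T1, 31.8 ± 7.49 in C and 39.0 ± 13.2 in WT. Member 6 (848 bases) averaged 9.79 ± 2.80 in HP1_T2, 25.4 ± 7.10 in HP1_T1, 34.8 ± 2.71 in HP8_T1, 21.8 ± 8.34 in C and 26.1 ± 10.4 in WT (SD, n = 4 each). In members 4 and 6, HP8_T1 was the highest group. Member 3 was the only low member with an overlap: its highest HP1_T2 library, at 19.1, lay above 1 C library at 17.8 and 1 WT library at 17.3.

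The HP1_T2 libraries lay below all 16 others for 5 of the 6 low members, against 1.58% of the 1077 features with an X of at least 20 in the other groups, which again repeats the choice. Both T1 hairpin groups had a lower X than both controls in 4 of the 6 low members and a higher one in 1, against 20.5% and 31% of those 1077 features. One of the 4 is member 3, where the 4 groups were nearly equal. Its X was 34.25 in HP1_T1, 33.74 in HP8_T1, 34.31 in WT and 34.88 in C, with an SD of 15.4 in WT. Among the 12 high members both T1 hairpin groups had a higher X than both controls in 4 and a lower one in 2, against 38.6% and 15% of the 2025 features with an X of at least 20 in HP1_T2. Per kilobase of feature length, the mean level in HP1_T2 ranged from 25.4 to 183 scaled reads in the high set and from 11.5 to 55.6 in the low set.

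**Figure D3:**
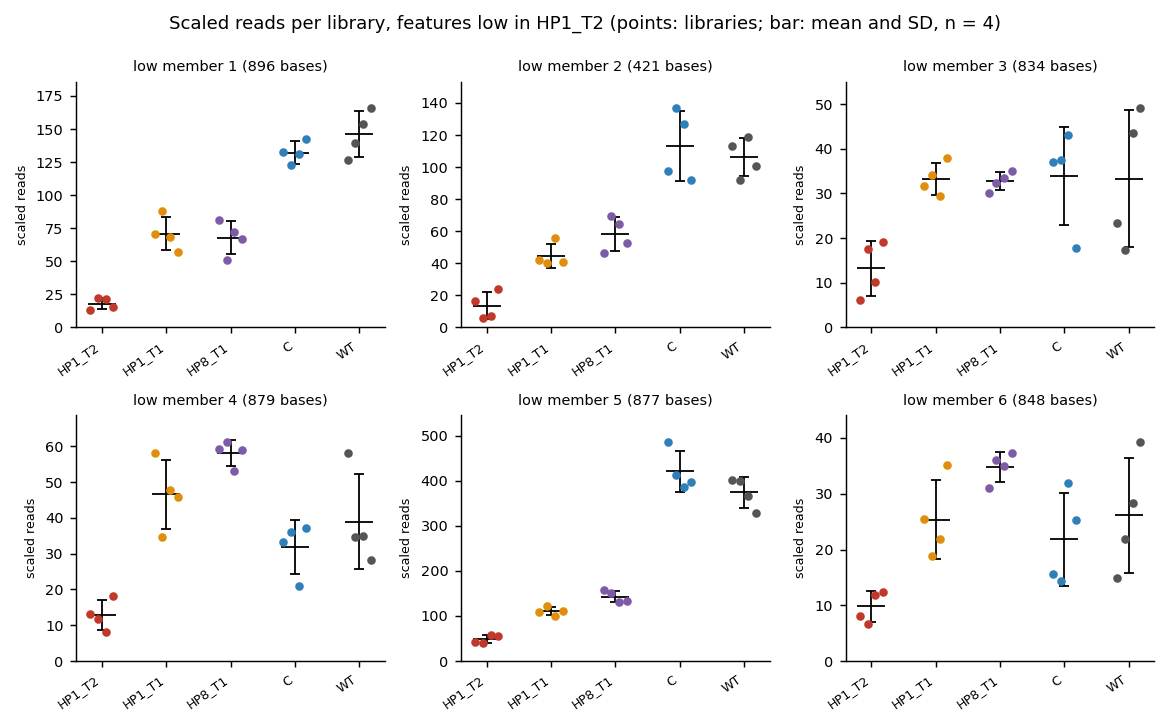
Scaled reads (vertical) in each library of HP1_T2, HP1_T1, HP8_T1, C and WT for the 6 low members, one panel each. Points are libraries and bars the mean and SD (n = 4); vertical axes start at 0 and differ between panels. Members 1, 2 and 5 show 3 tiers (HP1_T2, the T1 hairpin groups, the controls), and members 3, 4 and 6 do not.

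In a fit of all 20 libraries with edgeR's quasi-likelihood test (7126 features tested, Benjamini-Hochberg adjusted p of 0.05), all 12 high members were called higher in HP1_T2 and all 6 low members lower, in each of the 4 comparisons. Among all tested features, 16.9% were called higher and 17.4% lower in HP1_T2 against HP1_T1, 18.5% and 19.1% against HP8_T1, 17.3% and 16.1% against C, and 27.9% and 24.4% against WT. The rule used these contrasts, so the calls of the members add nothing. All 18 members passed the filter on low counts, but 3 of the high members (5, 7 and 9) passed only through their HP1_T2 libraries. Their differences between the other groups are therefore given as values without a test, and the counts below are over the other 9 high members.

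The remaining groups were compared with each other on the same fit, and these contrasts were not used for the ratios, although the rule capped or floored every group's level. The first asked how the members stood in empty-vector regenerants against wild type. Here 0 of the 9 high members were higher in C (19.6% of all tested features were) and 2 were lower (21.0%). For the rises, 0 of the 9 had an unadjusted p under 0.05, and DESeq2 called 0. High member 11 was lower in C, with a log2 difference of −2.68 (edgeR adjusted p = 0.00153, SE 0.72), and high member 2 as well, with −0.91 (edgeR adjusted p = 0.0143, SE 0.31). The call of member 2 was lost without C replicate 4 or WT replicate 4, where its log2 difference was −0.74 and −0.65. High member 7, for which no test is given, had 15 reads in C and 5 in WT. Of the low members, edgeR called 0 in either direction, 0 had an unadjusted p under 0.05, and DESeq2 called 0.

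The parent generation against wild type gave more calls, as it did among all tested features. In HP1_T1, 3 of the 9 high members were higher than in WT (30% of all tested features were) and 2 were lower (24.3%), while 0 of the 6 low members were higher and 3 were lower. The 3 low members were Nta#S45496119, with a log2 difference of −2.03 (edgeR adjusted p = 2.63e-36, SE 0.09), member 2, with −1.50 (edgeR adjusted p = 7.41e-15, SE 0.15), and Nta#S45496192, with −1.32 (edgeR adjusted p = 1.29e-16, SE 0.12). For the rises that edgeR did not call among the low members, 0 had an unadjusted p under 0.05 and DESeq2 called 0. These are the 3 members with tiers described above, and each HP1_T1 library lay below each WT library in all 3, as in 27.6% of the 1077 features with an X of at least 20 in the groups other than HP1_T2; with library totals the difference of Nta#S45496119 stayed below 0 and those of the other 2 were above it.

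High member 8 was higher in HP1_T1 than in WT by 1.62 on the log2 scale (edgeR adjusted p = 0.00866, SE 0.54), member 4 by 1.09 (edgeR adjusted p = 0.0253, SE 0.43) and Nta#S33541866 by 0.98 (edgeR adjusted p = 0.0115, SE 0.34). High member 2 was lower, with a log2 difference of −0.86 (edgeR adjusted p = 0.00252, SE 0.25), and so was Nta#S45497669, with −0.50 (edgeR adjusted p = 0.0135, SE 0.18). With the TMM scaling used here, 3 of the 9 high members were called above WT and 2 below in the parent generation. These counts are near the shares of all tested features (30% and 24.3%), so nothing is read from them. The differences of the 2 members below WT were above 0 with library totals and with totals outside the most abundant feature. The call of member 4 was lost without HP1_T1 replicate 2, WT replicate 1 or WT replicate 3, where its log2 difference was 0.98, 0.90 and 0.86, and that of member 2 without WT replicate 4, where it was −0.59. The call of Nta#S33541866 was lost without HP1_T1 replicate 2 or WT replicate 4, where its log2 difference was 0.78 and 0.68, and that of Nta#S45497669 without WT replicate 3, where it was −0.44. Of the members not called, high member 10 was called lower without WT replicate 4, high member 11 higher without WT replicate 1, high member 12 higher without HP1_T1 replicate 3, and low member 3 lower without WT replicate 2. The fitted differences of the members without a test were −0.64 for member 5, 2.27 for member 7 and 2.60 for member 9.

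Line 8 was compared with line 1 in the T1 generation. In HP8_T1, 1 of the 9 high members was higher than in HP1_T1 (20.6% of all tested features were) and 1 was lower (20.4%), and 3 of the 6 low members were higher and 0 lower. In HP8_T1 Nta#S33541866 was lower, its log2 difference being −1.44 (edgeR adjusted p = 5.34e-05, SE 0.30). Nta#S45497669 was higher by 0.52 (edgeR adjusted p = 0.00432, SE 0.15). Of the low members, Nta#S45496119 was higher by 0.36 (edgeR adjusted p = 0.00195, SE 0.10), member 2 by 0.38 (edgeR adjusted p = 0.0417, SE 0.16) and member 6 by 0.47 (edgeR adjusted p = 0.0457, SE 0.19). For falls of low members, 0 had an unadjusted p under 0.05 and DESeq2 called 0. The call of low member 2 was lost without HP1_T1 replicate 1, 2 or 4 or HP8_T1 replicate 2 or 3, and that of low member 6 without HP1_T1 replicate 1, 2 or 3 or HP8_T1 replicate 2, 3 or 4. High member 12 was called lower without HP1_T1 replicate 3, HP8_T1 replicate 1 or HP8_T1 replicate 4, and low member 4 higher without HP1_T1 replicate 1.

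**Figure D4:**
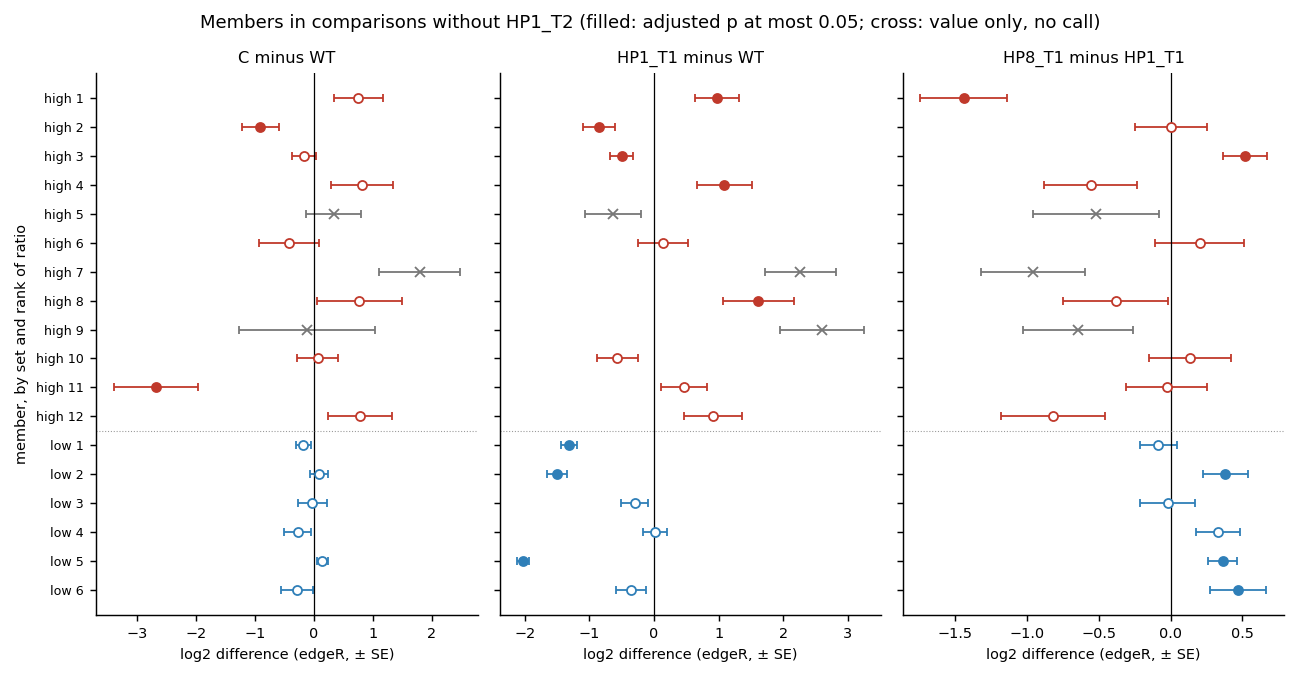
Log2 difference from edgeR (horizontal, ± SE) of the 12 high and 6 low members (vertical, by rank of ratio) in C minus WT, HP1_T1 minus WT and HP8_T1 minus HP1_T1. Filled points have an adjusted p of at most 0.05, and grey crosses are high members 5, 7 and 9, shown as values without a call. In HP1_T1 minus WT, 3 high members lie above 0 and 2 below among the filled points, and the 3 filled low members all lie below 0; the sign of 2 of these 5 high and of 2 of these 3 low members depended on the scaling.

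The signs depended on how the libraries were scaled. With library totals the median log2 difference of all tested features was 1.72 in HP1_T1 minus WT, 0.11 in C minus WT and −0.21 in HP8_T1 minus HP1_T1, and when only reads beyond the most abundant feature set the scale these medians were 1.22, 0.67 and −0.32. With the TMM factors used above it was 0.17, 0.00 and −0.02. The sign held under all 4 scalings tried for 2 of 2 calls of high members in C minus WT, for 3 of 5 calls of high members and 1 of 3 of low members in HP1_T1 minus WT, and for 2 of 2 of high and 3 of 3 of low members in HP8_T1 minus HP1_T1. A change of scaling shifts all features nearly alike, so differences relative to the median of all tested features hardly change. That each of these calls kept its sign relative to that median under all 4 scalings was therefore set in advance and is no check. Nta#S45496119 in HP1_T1 minus WT was at −2.19 relative to the median with TMM, −2.18 with library totals and −2.19 with totals outside the most abundant feature. Nta#S45497669 was at −0.67, −0.66 and −0.66, although its own difference was 1.06 with library totals and 0.56 with totals outside the most abundant feature.

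The choice of scaling also moved the members. With TMM factors, all 12 high and all 6 low members were found again. With library totals, 16 features formed the high set and 3 the low set, of which 6 and 3 were members above. With totals outside the most abundant feature, 8 and 3 features did, and again 6 and 3 were shared. High members 1, 2, 3 and 5 and low members 1, 2 and 5 were kept under every scaling, with unique reads and with any 1 library left out. With each library left out in turn, 6 of the 12 high and 5 of the 6 low members were kept throughout. High member 12 was lost in 6 of the 20 cases, without HP1_T2 replicate 1 or 2, HP1_T1 replicate 2 or 3, HP8_T1 replicate 3 or WT replicate 3. Member 11 was lost in 5, without HP1_T2 replicate 1 or 4, HP1_T1 replicate 1 or HP8_T1 replicate 1 or 3. Member 9 was lost without HP1_T2 replicate 1 or HP1_T1 replicate 1 or 3, and member 10 without HP1_T2 replicate 2, C replicate 1 or WT replicate 4. Member 8 was lost without HP1_T2 replicate 3 or HP1_T1 replicate 2, and member 6 without HP8_T1 replicate 1. Low member 6 was lost without HP1_T2 replicate 2 and without C replicate 3.

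The members were not long features. The median length was 834 bases in the high set and 862.5 in the low set, and the longest members had 903 and 896 bases, against a median of 903 and a maximum of 6090 among the 3413 features with an X of at least 20 in at least 1 group. Of the 18 members, 17 were shorter than that median, 1 equalled it and 0 were longer. Reads shared with other features were more varied. In 3 of the 6 low members (50%) and 1 of the 12 high members (8.33%), under 90% of reads were unique, against 13.04% of the 3413 features. The unique share of low member 2 was 41.1% in HP1_T2, 47.1% in HP1_T1, 47.0% in HP8_T1, 58.4% in C and 54.3% in WT. That of Nta#S45496192 was 66.7% in HP1_T2, 69.0% in HP1_T1, 70.9% in HP8_T1, 71.4% in C and 75.9% in WT. In these 2 features the share was lowest in HP1_T2, where they had 56 and 78 reads in all. In the other 2 features under 90% it was not: low member 3 had 91.4% in HP1_T2, 86.5% in HP1_T1, 92.9% in HP8_T1, 82.95% in C and 90.8% in WT, and Nta#S33541866 had 74.1% in HP1_T2, 72.3% in HP1_T1, 80% in HP8_T1, 91.4% in C and 64.0% in WT. These shares were not tested. With unique reads alone the rule gave the same 12 and 6 members.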

How the data were processed

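Per the labels' protocols, lithium chloride extracts of total leaf RNA went into SOLiD total RNA libraries. For the aligner, counter, filters and reference build: not given in the sources used here. Per the file headers, the authors deposited total and unique gene read counts per UniGene feature, with feature lengths, in 2 tables, whose WT counts were identical, so all 20 libraries entered 1 analysis. The deposited counts were analysed as given.

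Size factors were the median ratio to the geometric mean over features with at least 10 reads in every library. Other contrasts used edgeR 4.0.16 (R 4.3.3; TMM, filterByExpr with a minimum count of 10, group as the only term; common coefficient of variation 8.91%), with DESeq2 1.42.0 as an alternative, and members that passed this filter only through HP1_T2 libraries got no test; Python 3.11.15 gave the rest. The fit was tested on simulated counts. The features given by identifier are, in each set, those with the largest ratio and the highest level. Members, comparisons and alternatives were chosen with earlier results of these data known. Gene lists and cell type markers could not be applied. Replicate libraries in 30 within-group pairs differed by more than counting noise (chi-square per degree of freedom 1.25 to 4.01).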

Additional observations from a re-analysis of the deposited data

Results flagged for a closer look

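Of 90 sets of 4 libraries (18 members in 5 groups), 3 had a library far from the other 3 by Dixon's criterion at 95%; chance alone flags about 1 in 20, or 4.5. High member 5 (834 bases) had 26.7 scaled reads in HP1_T2 replicate 4 and 19.2 to 19.4 in the other HP1_T2 libraries. High member 11 (895 bases) had 19.96 in WT replicate 1 and 4.60 to 5.44 in the other WT libraries. Low member 2 (421 bases) had 55.8 in HP1_T1 replicate 3 and 40.2 to 42.3 in the other HP1_T1 libraries.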

How the results depend on the processing

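Of 434 recomputed values, 371 kept direction and side of the threshold or stayed within 1.5 times the main count. High-member calls there are over all 12. The low set fell to 3 members with library totals or totals outside the most abundant feature. Leaving out single libraries gave 10 to 14 high and 5 to 8 low members. In HP1_T1 minus WT, library totals gave 9 higher and 0 lower high members and 3 higher and 1 lower low members. Of all 7126 tested features, 5718 were higher and 412 lower there. Totals outside the most abundant feature gave 7 higher and 0 lower high members and 3 higher and 2 lower low members, against 4884 higher and 649 lower features. In that comparison 1 high member was lower with DESeq2's size factors, without the filter and with DESeq2's test. In C minus WT, totals outside the most abundant feature gave 4 higher and 1 lower high members and 4 higher low members. Of all 7126 tested features, 2959 were higher and 651 lower there. DESeq2's test gave 0 higher high members and unique reads 1. In HP8_T1 minus HP1_T1, library totals gave 0 higher high and 0 higher low members, where 971 of all tested features were higher. Totals outside the most abundant feature gave 0 higher and 3 lower high members and 0 higher and 1 lower low members. With that scaling 852 features were higher and 2424 lower. The fit without a filter gave 1 higher low member, and DESeq2's test 1 lower high and 1 higher low member. The high-member calls above are over the 9 tested. Over all 12, edgeR called 1 higher and 2 lower in C minus WT and 5 and 2 in HP1_T1 minus WT. In HP8_T1 minus HP1_T1 it called 1 and 2. With the filter on low counts set on the 16 libraries outside HP1_T2, an alternative chosen after seeing the data, high members 5, 7 and 9 left the fit. Of the other 9, 0 were higher in C minus WT (19.8% of all features tested there). In HP1_T1 minus WT 3 were higher (30.5%), and in HP8_T1 minus HP1_T1 1 was lower (20.6%). The scalings by totals shift all features, as their medians show; for the other alternatives the cause was not tested. With single libraries left out, 0 of the 9 tested high members were higher and 1 to 2 lower in C minus WT. In HP1_T1 minus WT 1 to 4 (3 to 6 of all 12) were higher and 1 to 2 lower. In HP8_T1 minus HP1_T1 1 was higher and 1 to 2 lower, with 1 to 3 low members higher.

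Signs reversed for Nta#S45497669 in HP1_T1 minus WT (1.06 with library totals, 0.56 with totals outside the most abundant feature) and in C minus WT (0.51 with totals outside the most abundant feature), and for Nta#S45496192 in HP1_T1 minus WT (0.24 with library totals) and C minus WT (0.50 with totals outside the most abundant feature). In HP8_T1 minus HP1_T1, where its difference of −0.09 was not called, Nta#S45496192 ranged from −0.20 to 0.044 over single libraries left out, with 0.029 without HP1_T1 replicate 2 and 0.044 without HP8_T1 replicate 2. The labels do not say what a replicate number marks. Over 40 pairs of same-numbered libraries of different groups, deviations from the group means correlated at −0.03 to 0.10 across features, 1 pair over 0.1. Of the 40, 25 correlated best with their own number, where 10 would if the numbers carried nothing. The pairs share libraries and are not independent, and the correlations are small. Whether the numbers mark something shared was not tested, and the labels give no pairing by design. With the replicate block, 3 of the 9 high members tested were called higher and 2 lower in HP1_T1 minus WT, and 0 low members higher and 3 lower. Of all 7126 tested features, 2145 were called higher and 1736 lower there. No count of members moved by over 1.5 times. At 418585 to 495156 reads outside the most abundant feature per HP1_T2 library, the 9 high members near the ratio limit rest on 86 to 135 reads in HP1_T2.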
